A study of Homo sapiens with 6 samples.

Results

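The proteasome genes were taken as every gene whose symbol begins PSMA to PSMG followed by a number, which gave 48 genes of the 58825 in the deposited tables. They were split by known role into 7 alpha and 7 beta subunits of the core particle, 6 ATPases and 11 non-ATPases of the regulatory cap, the 3 immunoproteasome subunits PSMB8, PSMB9 and PSMB10, the tissue-restricted core subunits PSMA8 and PSMB11, 5 genes for activators or an inhibitor, and 7 genes for assembly chaperones. The first 4 of these classes, 31 genes in all, are called constitutive subunits here. RNA-seq was done on NCI-H460 cells, a human lung cancer line that the labels describe as lung adenocarcinoma, grown in RPMI-1640. The sample titles call the control cells GFPkd, whereas the methods list a control hairpin and name no target for it. NC-shRNA cells (3 libraries) carried this lentiviral control short hairpin RNA, and PRMT5-shRNA cells (3 libraries) carried one against PRMT5, an arginine methyltransferase. Both are stable lines selected with puromycin by the methods, so a single line of cells stands behind each group, and the labels do not say which of the designed hairpins was sequenced. The authors describe the 3 libraries of a group as biological replicates. Whether these came from separate cultures is not stated, so the p-values measure only the spread between these libraries.

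The proteasome degrades proteins tagged with ubiquitin. Its barrel-shaped core is built of alpha rings that gate the entrance and beta rings that carry the cutting sites, and its cap binds ubiquitin chains, removes them and unfolds the substrate with a ring of ATPases. In cells exposed to interferon gamma the cutting subunits PSMB5, PSMB6 and PSMB7 are replaced by PSMB8, PSMB9 and PSMB10, which alters the peptides made for presentation on MHC class I. When proteasome capacity falls short, the transcription factor NFE2L1 (NRF1) raises the constitutive subunit genes together through antioxidant response elements.

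The 6 libraries held 53531257 to 70518401 counts. PRMT5 itself was at 9604, 8812 and 7966 counts with NC-shRNA and at 2502, 3188 and 2203 counts with PRMT5-shRNA, a log2 fold change of -1.62 (SE 0.0943, adjusted p = 0.0063, edgeR), so the labels and the knockdown match. Over all 20295 genes tested, the share with an adjusted p below 0.05 was 0.0197% for lower and 0.0493% for higher genes, and the median log2 fold change was 0.0075. The epithelial keratins KRT8, KRT18 and KRT19 were abundant, with NC-shRNA means of 904, 554 and 102 CPM (counts scaled to a common library total), whereas EPCAM and CDH1 were low at 1.52 and 1.01 CPM. The leukocyte markers, which matter because leukocytes use the immunoproteasome, summed to 4.28 to 5.39 CPM in NC-shRNA and 5.64 to 7.13 CPM in PRMT5-shRNA, with CD3E at 0 in every library and PTPRC at 0 in NC-shRNA and 0 to 10 counts in PRMT5-shRNA. Of these 10 leukocyte genes 5 could be tested, and 1 (LAPTM5) had an unadjusted p below 0.05. The 6 endothelial markers summed to 9.74 to 10.9 CPM against 14.9 to 18.5 CPM, with VWF rising from 0 counts in each NC-shRNA library to between 105 and 128 counts and TIE1 at 0 in all NC-shRNA libraries, and all 4 that could be tested were higher with PRMT5-shRNA at an unadjusted p below 0.05 (VWF adjusted p = 0.0341, edgeR). The 6 fibroblast markers summed to 108 to 134 CPM against 96.9 to 117 CPM, with COL1A2 at 0 in every library. DCN made up most of the fibroblast sums, with means of 96.9 and 82.0 CPM (log2 fold change -0.24). Of the 5 fibroblast genes tested, 2 were lower and 3 higher, and 1 (PDGFRB) was higher at an unadjusted p below 0.05. Of the 5 epithelial genes, 1 (KRT8, log2 fold change -0.23) was lower at that threshold. Over all genes, 6.29% were lower and 6.54% higher at it. Their part in the proteasome values was not tested.

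Promoter windows are shown first for the genes on which the constitutive and the immunoproteasome programs differ by known regulation. They come from RefSeq (GRCh38.p14) and run from 250 bases before to 50 bases after the annotated gene start, 5′ to 3′ on the strand of the gene. RefSeq windows were matched for 42 of the 48 genes, in 51 windows, and no window was matched for PSMA7, PSMB1, PSMB6, PSMB7, PSMD4 and PSMG3. Capitals mark the letters of an interferon-stimulated response element, GAAA, 2 bases of any kind and GAAA, on either strand, in PSMB8 (chr6:32843998-32844297, minus strand), PSMB10 (chr16:67936801-67937100, minus strand) and the interferon-responsive activator genes PSME1 (chr14:24135944-24136243, plus strand) and PSME2 (chr14:24146561-24146860, minus strand).
PSMB8: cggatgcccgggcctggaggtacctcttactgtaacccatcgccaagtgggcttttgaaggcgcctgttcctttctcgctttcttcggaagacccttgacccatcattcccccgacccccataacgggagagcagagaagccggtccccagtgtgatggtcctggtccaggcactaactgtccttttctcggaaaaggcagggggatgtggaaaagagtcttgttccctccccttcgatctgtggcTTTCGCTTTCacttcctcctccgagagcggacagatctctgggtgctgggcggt
PSMB10: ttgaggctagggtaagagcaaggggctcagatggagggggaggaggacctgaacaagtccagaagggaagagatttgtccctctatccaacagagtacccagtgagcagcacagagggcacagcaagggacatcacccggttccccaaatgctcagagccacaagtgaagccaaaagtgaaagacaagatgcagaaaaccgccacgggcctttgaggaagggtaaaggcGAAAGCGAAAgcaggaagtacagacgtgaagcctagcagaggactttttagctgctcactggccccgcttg
PSME1: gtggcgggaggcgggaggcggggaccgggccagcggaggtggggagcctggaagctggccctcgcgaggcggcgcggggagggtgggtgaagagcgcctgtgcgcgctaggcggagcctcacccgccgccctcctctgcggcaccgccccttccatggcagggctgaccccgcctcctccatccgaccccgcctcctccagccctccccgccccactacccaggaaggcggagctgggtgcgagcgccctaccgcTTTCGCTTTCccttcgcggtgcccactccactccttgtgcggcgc
PSME2: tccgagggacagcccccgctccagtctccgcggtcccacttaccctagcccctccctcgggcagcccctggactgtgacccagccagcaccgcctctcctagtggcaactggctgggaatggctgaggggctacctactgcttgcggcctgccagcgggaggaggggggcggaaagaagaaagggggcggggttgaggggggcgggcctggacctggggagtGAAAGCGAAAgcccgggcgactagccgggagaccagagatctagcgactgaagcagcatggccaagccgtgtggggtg
This motif was present in 3.57% of all 35116 promoter windows of the same length, and in at least 1 window of 4.38% of the 27305 genes that have one. Among the proteasome genes it was found in PSMB8, PSMB10, PSME1, PSME2, PSMA4, PSMB4 and PSMG4, which is 2 of 3 immunoproteasome genes and 2 of 26 constitutive genes with a window. The matches began 4 bases before the start of PSMB8, 21 before that of PSMB10 and 28 before that of PSME2. In PSME1 the match began 5 bases after the start.

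For the constitutive program, PSMD1 (chr2:231056617-231056916, plus strand) and PSMD12 (chr17:67366528-67366827, minus strand) are shown because they were the subunit genes with the smallest p-values in the comparison. Capitals mark the core of an antioxidant response element, TGACNNNGC on either strand.
PSMD1: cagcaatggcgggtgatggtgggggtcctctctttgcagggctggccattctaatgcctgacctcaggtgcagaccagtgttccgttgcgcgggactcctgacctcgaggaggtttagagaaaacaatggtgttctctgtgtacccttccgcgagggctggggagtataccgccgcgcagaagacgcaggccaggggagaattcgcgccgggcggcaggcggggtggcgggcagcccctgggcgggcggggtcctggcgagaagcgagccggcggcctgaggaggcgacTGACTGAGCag
PSMD12: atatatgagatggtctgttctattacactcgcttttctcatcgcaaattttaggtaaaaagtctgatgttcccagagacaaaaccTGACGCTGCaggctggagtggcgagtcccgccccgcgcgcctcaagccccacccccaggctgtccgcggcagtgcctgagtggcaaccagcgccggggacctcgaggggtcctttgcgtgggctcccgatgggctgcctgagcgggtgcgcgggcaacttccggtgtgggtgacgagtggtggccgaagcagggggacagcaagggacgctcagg
The match began 39 bases after the start of PSMD1 and 165 bases before that of PSMD12. The core was present in 13.3% of all windows. Counted per gene, with a match in any of its windows, it was in 16.1% of all genes and in 7 of the 26 constitutive genes with a window (26.9%). The core was not particular to them, being in 15 of all 42 proteasome genes with a window. These included 1 of 3 immunoproteasome genes (PSMB9) and 3 of 5 activator or inhibitor genes (PSME1, PSME2 and PSME4). Its matches in PSME1 and PSME2 are not marked in the sequences above. For the 7 constitutive genes with the core the median log2 fold change was -0.20, against -0.16 for the 19 without it, a difference given as a description with no test. The CCAAT box (CCAAT, either strand) was present in 34.6% of all windows, 39.7% of all genes and 15 of the 26 (57.7%), with medians of -0.17 with it and -0.16 without. An ETS site, CCGGAAG, was in 10.3% of windows, 12.2% of all genes and 10 of the 26 (38.5%), with medians of -0.16 with it and -0.18 without. A gamma-activated site, TTCNNNGAA, was in 7.66% of windows, 9.38% of all genes and 5 of the 26 (19.2%), one of them PSMB5, and also in PSMB8. Matches were counted whether or not they overlapped one of another motif.

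The 46 genes that could be tested were mostly lower after PRMT5 knockdown, by small amounts. The fitted log2 fold change was below 0 for 42 of them and above 0 for 4 (PSMA6, PSMD9, PSMG3 and PSMG4), with a median of -0.16, a decrease of 10.3%. The authors' FPKM scale is fragments per kilobase of length, scaled to the mapped fragments. On it 36 of 46 were lower and the median was -0.09, while the median over all genes was 0.04. No proteasome gene passed an adjusted p of 0.05 in edgeR or in DESeq2, and the smallest adjusted p in edgeR was 0.236, for PSMD1. At an unadjusted p below 0.05, edgeR gave 12 lower and 0 higher genes. DESeq2 gave 10 lower and 0 higher, where 4.13% of all genes were lower. The 12 were 26.1% of the genes tested, where 6.29% of all genes were lower and 6.54% higher at that threshold. The 2 groups did not overlap for 18 of the 46 genes, all with the PRMT5-shRNA libraries below the NC-shRNA libraries, where the shares over all genes were 10.7% for lower and 11% for higher. PSMA8, expressed in germ cells, and PSMB11, the thymic core subunit, had 0 counts in all 6 libraries and were not tested.

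All 12 genes with an unadjusted p below 0.05 were constitutive subunits, as were 17 of the 18 whose groups did not overlap. Among the 31 constitutive genes 30 were lower, with log2 fold changes from -0.39 for PSMB2 to 0.01 for PSMA6 and a median of -0.17, a decrease of 11.2%. Their summed level was 5848, 5267 and 5005 CPM with NC-shRNA and 4767, 4906 and 4664 CPM with PRMT5-shRNA. The means were 5373 ± 431 and 4779 ± 122 CPM (SD, n = 3 each), and the groups did not overlap. In FPKM the sums were 1535, 1397 and 1372 against 1329, 1353 and 1292, also without overlap. The other 15 genes tested, with immunoproteasome, activator and chaperone genes together, had a median of -0.09, and 1 of them (PSMG1) did not overlap between groups. The difference between the classes was not tested. In bulk RNA, fewer cells expressing a gene and less of its RNA per cell cannot be told apart.

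**Figure D1:**
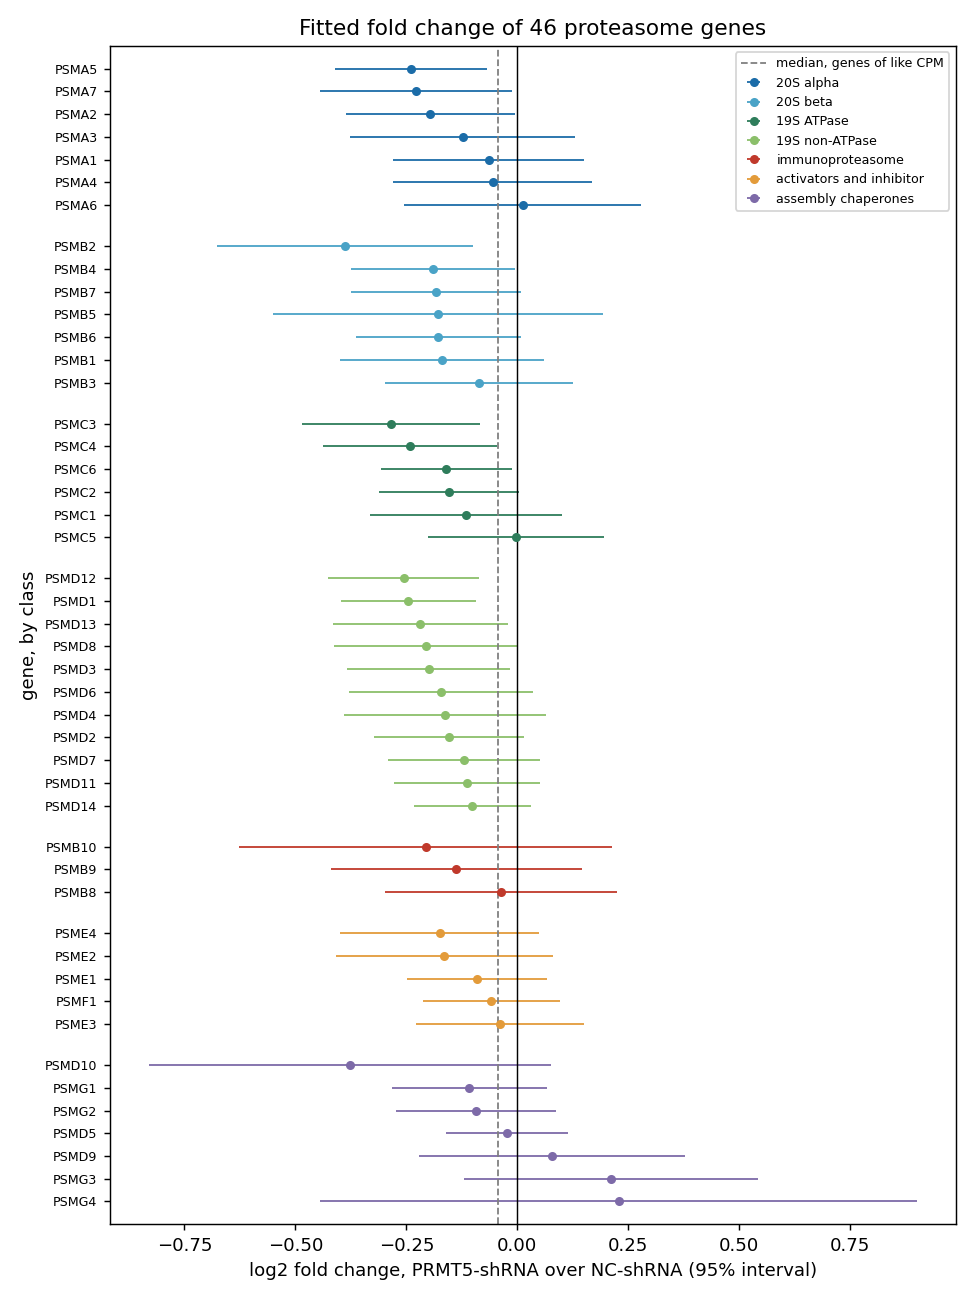
Fitted log2 fold change (x axis, PRMT5-shRNA over NC-shRNA, 3 libraries each, edgeR) of the 46 tested proteasome genes (y axis, by class), with 95% intervals as bars. Nearly all constitutive genes lie left of the line at 0 and 30 of 31 are below it, and the dashed line is the median of -0.04 over all tested genes in their range of CPM.

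Abundant genes as a whole were also slightly lower. The 2887 tested genes with a mean between 64.7 and 383 CPM, the range of the constitutive subunits, were at a median log2 fold change of -0.04, with 60.5% below 0. In that range 15.8% of genes were lower at an unadjusted p below 0.05 and 22.8% were lower without overlap, compared with 38.7% and 54.8% of the constitutive subunits. Gene length differed too, with a median exonic length of 4490 bases for the constitutive subunits. It was 5872 bases for genes of that range and 3923 bases for all tested genes. Across 20221 genes the fold change and the length had a Spearman correlation of 0.12, a description over genes that share the same libraries. With an offset for length in the fit, all 31 constitutive genes were lower with a median of -0.15.

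NC-shRNA replicate 1 stood apart for these genes. It was the library with the highest CPM for 28 of the 31 constitutive subunits, and for 36.8% of genes of that range of CPM. PRMT5-shRNA replicate 3 was the lowest library for 17 of the 31, and for 29.03% of genes of that range. Without NC-shRNA replicate 1 the median of the constitutive genes was -0.11 and 27 of 31 were lower. In that fit 7 proteasome genes and 4.49% of all genes were lower at an unadjusted p below 0.05. Without that library the groups did not overlap for 17 of the 31 (54.8%), all lower, against 28.0% of genes of that range and 15.0% of all genes. The count of 17 could not change by this omission, because NC-shRNA replicate 1 was not the lowest NC-shRNA library for any of the 31. It therefore does not show how far these genes depend on that library.

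**Figure D2:**
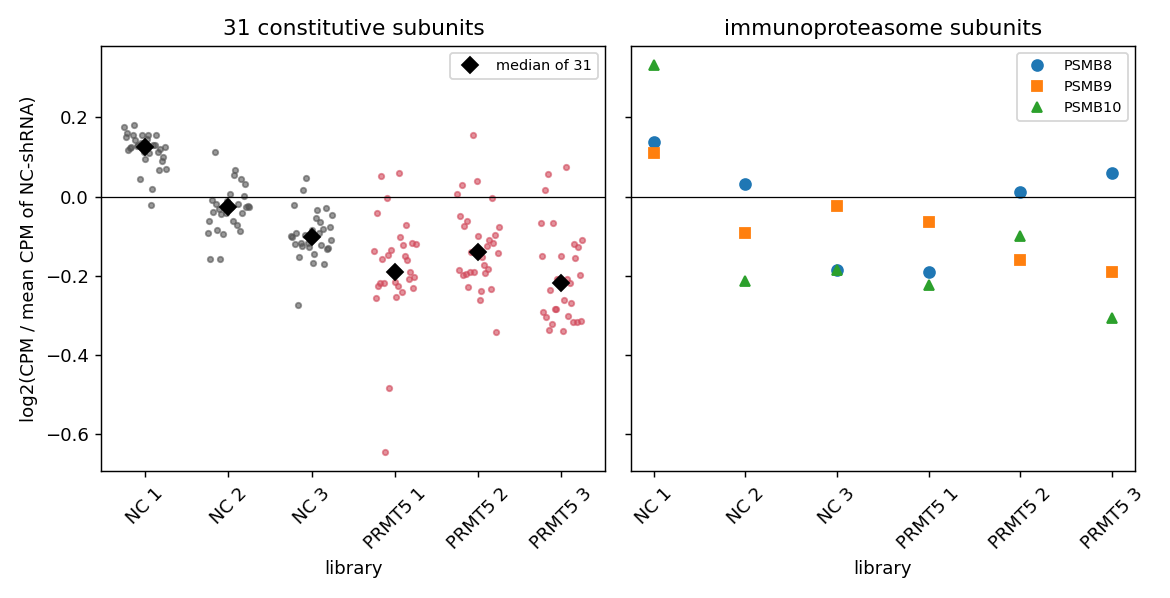
CPM of each gene in each library (x axis) on a log2 scale relative to its mean over the NC-shRNA libraries (y axis), for the 31 constitutive subunits (left, points; diamonds are medians) and the 3 immunoproteasome subunits (right). NC-shRNA replicate 1 holds the highest value for 28 of the 31 constitutive subunits, whereas the medians of all 3 PRMT5-shRNA libraries lie below those of all 3 NC-shRNA libraries.

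The alpha subunits form the outer rings and the gate of the core. Of the 7, 6 were lower and the class median was -0.12 on the log2 scale, and 3 (PSMA5, PSMA7 and PSMA2) had an unadjusted p below 0.05. PSMA5 was at 221.1, 197.9 and 190.5 CPM in NC-shRNA and 174.5, 177.1 and 164.5 CPM in PRMT5-shRNA. All 3 PRMT5-shRNA values were below all NC-shRNA values, with a log2 fold change of -0.24 (SE 0.0724, adjusted p = 0.284, edgeR). PSMA7 was at 326.2, 289.0 and 263.7 CPM against 262.5, 255.8 and 232.0 CPM, so that the groups touched without crossing (log2 fold change -0.23, adjusted p = 0.366, edgeR). It was the most abundant proteasome gene per length, at a mean of 132 FPKM over the 6 libraries. PSMA4 was the lowest of the class at 17.4 FPKM and overlapped between groups, with 158.0, 144.8 and 134.0 CPM against 124.6, 148.5 and 147.2 CPM.

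PSMA6 was the one constitutive subunit not lower in the fit. Its values were 243.3, 241.0 and 184.6 CPM in NC-shRNA and 231.1, 211.6 and 231.9 CPM in PRMT5-shRNA, with NC-shRNA replicate 3 the lowest library (log2 fold change 0.01, SE 0.113, adjusted p = 0.977, edgeR). PSMA6 shares 919 of its 6506 exonic bases with AL121594, a gene on the same strand that is counted separately. AL121594 had 1640, 651 and 4204 counts in NC-shRNA and 388, 2064 and 921 in PRMT5-shRNA, and was highest in the libraries where PSMA6 was lowest within its group. With both genes added together, a sum chosen after these values were seen, the levels were 267.8, 250.4 and 252.2 CPM against 238.2, 241.1 and 247.9 CPM. The sums did not overlap between groups, with means of 257 ± 9.54 and 242 ± 4.97 CPM (SD, n = 3 each). Without NC-shRNA replicate 3 the log2 fold change of PSMA6 alone was -0.11.

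The beta subunits line the chamber, and PSMB5, PSMB6 and PSMB7 carry the chymotrypsin-like, caspase-like and trypsin-like sites. All 7 constitutive beta genes were lower, the class median was -0.18, and 2 (PSMB2 and PSMB4) had an unadjusted p below 0.05. PSMB2, a non-catalytic subunit (chromosome 1, 35599544 to 35641844, minus strand, GRCh38), had the largest decrease among the 46 genes. Its values were 230.4, 204.0 and 191.4 CPM in NC-shRNA and 133.4, 178.1 and 167.0 CPM in PRMT5-shRNA. The groups did not overlap, and PRMT5-shRNA replicate 1 was farthest below (log2 fold change -0.39, SE 0.122, adjusted p = 0.293, edgeR).

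The catalytic subunits had fold changes smaller than that of PSMB2. PSMB5 was at 116.5, 105.9 and 116.8 CPM against 80.9, 125.8 and 92.9 CPM, with PRMT5-shRNA replicate 2 above every NC-shRNA library (log2 fold change -0.18, SE 0.157, adjusted p = 0.68, edgeR). PSMB6 was at 89.9, 80.4 and 75.5 CPM against 74.6, 71.9 and 70.9 CPM, without overlap (log2 fold change -0.18, adjusted p = 0.406, edgeR). PSMB7 was at 313.0, 272.9 and 257.2 CPM against 245.8, 256.0 and 241.2 CPM, also without overlap but by a narrow margin (log2 fold change -0.18, adjusted p = 0.406, edgeR). PSMB7 was the second most abundant proteasome gene per length at a mean of 126 FPKM.

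The ATPases of the cap thread unfolded substrate into the core. All 6 were lower with a median of -0.16, and 3 (PSMC3, PSMC4 and PSMC6) had an unadjusted p below 0.05. PSMC3 was at 312.1, 283.5 and 251.6 CPM in NC-shRNA and 236.9, 235.4 and 223.3 CPM in PRMT5-shRNA, all PRMT5-shRNA values being lower (log2 fold change -0.28, SE 0.0845, adjusted p = 0.278, edgeR). PSMC4 was at 161.1, 142.1 and 131.0 CPM against 123.8, 122.6 and 120.7 CPM, with a narrow spread among the knockdown libraries (log2 fold change -0.24, adjusted p = 0.312, edgeR). PSMC6, the least abundant of the class at 8.03 FPKM, was at 73.2, 77.1 and 72.5 CPM against 69.2, 65.9 and 64.3 CPM, again without overlap (log2 fold change -0.16, adjusted p = 0.36, edgeR). PSMC1 and PSMC5 overlapped between groups, and PSMC5 had a log2 fold change of -0.0029.

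The non-ATPase subunits include the scaffold proteins PSMD1 and PSMD2, the ubiquitin receptor PSMD4 and the deubiquitinase PSMD14. All 11 were lower, from -0.26 for PSMD12 to -0.10 for PSMD14, with a median of -0.17. Unadjusted p-values were below 0.05 for 4 (PSMD1, PSMD12, PSMD13 and PSMD3), and 6 did not overlap between groups. PSMD1 had 200.6, 207.4 and 185.7 CPM in NC-shRNA and 167.4, 173.0 and 160.5 CPM in PRMT5-shRNA, with the groups clearly apart (log2 fold change -0.24, SE 0.0637, adjusted p = 0.236, edgeR). PSMD12, a lid subunit, had 126.8, 116.2 and 112.3 CPM against 100.9, 93.4 and 103.2 CPM, also apart (log2 fold change -0.26, SE 0.0717, adjusted p = 0.259, edgeR). These 2 genes are those whose promoters with the antioxidant response element core are printed above. PSMD2, the most abundant of the class at 65.9 FPKM, had 440.9, 383.3 and 385.4 CPM against 370.5, 369.7 and 346.5 CPM. PSMD6, the least abundant at 6.05 FPKM, had 74.0, 70.6 and 60.9 CPM against 61.3, 58.2 and 63.1 CPM, with overlap.

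Against the constitutive subunits stand the immunoproteasome genes, and none of them showed a difference beyond the spread of its replicates. PSMB8 was at 47.8, 44.4 and 38.2 CPM in NC-shRNA and 38.1, 43.8 and 45.3 CPM in PRMT5-shRNA, with nearly the same range in both groups. Its log2 fold change was -0.04 (95% interval -0.30 to 0.22, adjusted p = 0.921, edgeR). PSMB9 was at 7.94, 6.90 and 7.23 CPM against 7.04, 6.58 and 6.45 CPM, overlapping through 1 PRMT5-shRNA library (log2 fold change -0.14, 95% interval -0.42 to 0.15, adjusted p = 0.675, edgeR). PSMB10 was at 10.8, 7.40 and 7.53 CPM against 7.35, 8.01 and 6.94 CPM, with NC-shRNA replicate 1 alone above the other 5 libraries (log2 fold change -0.21, 95% interval -0.63 to 0.21, adjusted p = 0.671, edgeR). All 3 intervals contain the median of the constitutive subunits, -0.17, as well as 0, so these libraries do not separate an immunoproteasome response from that of the constitutive genes or from no change. Without NC-shRNA replicate 1 the median of the 3 genes was -0.0073 in place of -0.14.

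In the annotation used here (GENCODE release 29), PSMB8 and PSMB9 overlap at their ends in the MHC region and share 139 exonic bases. PSMB8 spans chromosome 6, 32840717 to 32844703 on the minus strand, and PSMB9 32844136 to 32859585 on the plus strand (GRCh38). The RefSeq promoter window of PSMB9 begins at 32853942, farther from PSMB8. PSMB8 shares 618 of 2997 exonic bases with the antisense gene PSMB8-AS1, which had 39 to 115 counts in the 6 libraries. PSMB10 shares 644 of 1853 exonic bases with AC040162 on the same strand, which had 186, 256 and 255 counts in NC-shRNA and 285, 245 and 202 in PRMT5-shRNA. The sum of PSMB10 and AC040162 was 12.1 ± 1.29 CPM against 11.5 ± 1.06 CPM (SD, n = 3 each), with overlap. Levels of these genes are uncertain to the extent that reads in shared exons were divided between them.

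Per length, the immunoproteasome genes stood well below their constitutive counterparts. Exonic lengths were 2997, 3072 and 1853 bases for PSMB8, PSMB9 and PSMB10, against 1765, 1448 and 1787 for PSMB5, PSMB6 and PSMB7. Without length, the NC-shRNA means in the same order were 43.5, 7.35 and 8.57 CPM against 113, 81.9 and 281 CPM. Mean levels over the 6 libraries were 10.5 FPKM for PSMB8, 4.18 for PSMB10 and 1.79 for PSMB9, against 51.5 for PSMB5, 126 for PSMB7 and 45.5 for PSMB6. PSMB8 was 20.6, 21.1 and 16.5% of PSMB5 in NC-shRNA and 23.7, 17.5 and 24.5% in PRMT5-shRNA, with means of 19.4 ± 2.56% and 21.9 ± 3.84% (SD, n = 3 each). The difference of the log2 ratios was 0.17 (exact permutation test, two-sided, p = 0.5, adjusted p = 0.75 over 3 pairs). PSMB9 was 3.81, 3.71 and 4.15% of PSMB6 against 4.06, 3.95 and 3.92%, a difference of 0.03 (exact permutation test, p = 0.5, adjusted p = 0.75). PSMB10 was 3.77, 2.97 and 3.21% of PSMB7 against 3.28, 3.43 and 3.14%, a difference of -0.0072 (exact permutation test, p = 1.0). With 3 libraries against 3 this test cannot go below 0.1, so the ratios are values with little power behind them.

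**Figure D3:**
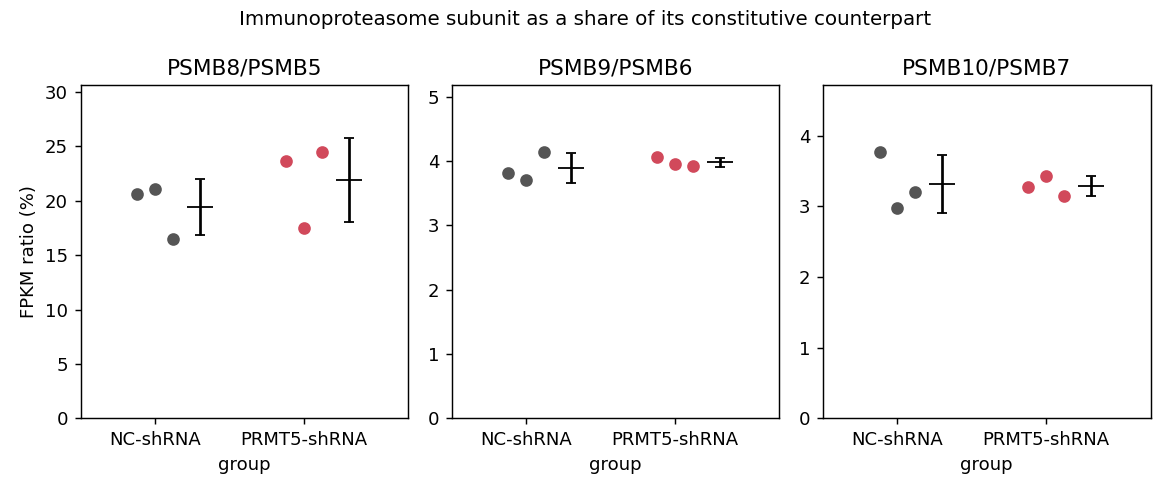
FPKM of PSMB8, PSMB9 and PSMB10 as a percentage of PSMB5, PSMB6 and PSMB7 in the same library (y axis, from 0), by group (x axis), with points for libraries and bars for mean ± SD (n = 3). The groups overlap in all 3 panels, with means of 19.4 and 21.9% for PSMB8 and between 3 and 4% for the others.

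The activators open the core without ubiquitin, with PSME1 and PSME2 forming the interferon-inducible PA28 ring, PSME3 its nuclear relative and PSME4 the PA200 cap, while PSMF1 is an inhibitor. All 5 were lower in the fit, with a median of -0.09, none had an unadjusted p below 0.05 and all overlapped between groups. PSME1 was at 84.7, 85.2 and 76.4 CPM against 78.8, 77.2 and 75.3 CPM (log2 fold change -0.09). PSME2 was at 84.5, 71.5 and 70.7 CPM against 73.5, 60.6 and 68.4 CPM (log2 fold change -0.16). Only PRMT5-shRNA replicate 1 kept the PSME2 groups from being apart by its margin over 2 NC-shRNA libraries.

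PSME4 was at 106.9, 128.6 and 130.4 CPM against 113.6, 100.3 and 110.1 CPM, and here NC-shRNA replicate 1 was the lowest of its group (log2 fold change -0.17, adjusted p = 0.482, edgeR). PSME3 was at 92.1, 90.2 and 84.7 CPM against 88.8, 92.6 and 78.3 CPM (log2 fold change -0.04). PSMF1 was at 82.6, 79.1 and 74.8 CPM against 73.2, 78.3 and 75.6 CPM (log2 fold change -0.06). In FPKM the fitted values of PSME3 and PSMF1 lay just above 0.

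The assembly chaperones, which build the core (PSMG1 to PSMG4) and the ATPase base (PSMD5, PSMD9 and PSMD10) but are absent from the finished particle, held 3 of the 4 genes with a fold change above 0. Of the 7, 4 were lower, the median was -0.02 and none had an unadjusted p below 0.05. PSMG3 was at 59.7, 51.4 and 52.6 CPM in NC-shRNA and 59.3, 76.6 and 53.7 CPM in PRMT5-shRNA, with replicate 2 of PRMT5-shRNA high (log2 fold change 0.21, SE 0.14, adjusted p = 0.57, edgeR). PSMG4 was at 9.22, 6.85 and 8.03 CPM against 7.11, 13.9 and 7.23 CPM, with the same library high (log2 fold change 0.23, SE 0.284, adjusted p = 0.779, edgeR). Without PRMT5-shRNA replicate 2 the value for PSMG4 was -0.16. PSMD9 was at 39.03, 34.2 and 31.7 CPM against 31.6, 37.6 and 41.6 CPM (log2 fold change 0.08). PSMD10 (gankyrin), named after its values were seen, had the lowest fold change of the class at -0.38 but overlapping groups and the widest spread among the lower chaperones (SE 0.191, adjusted p = 0.455, edgeR).

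**Figure D4:**
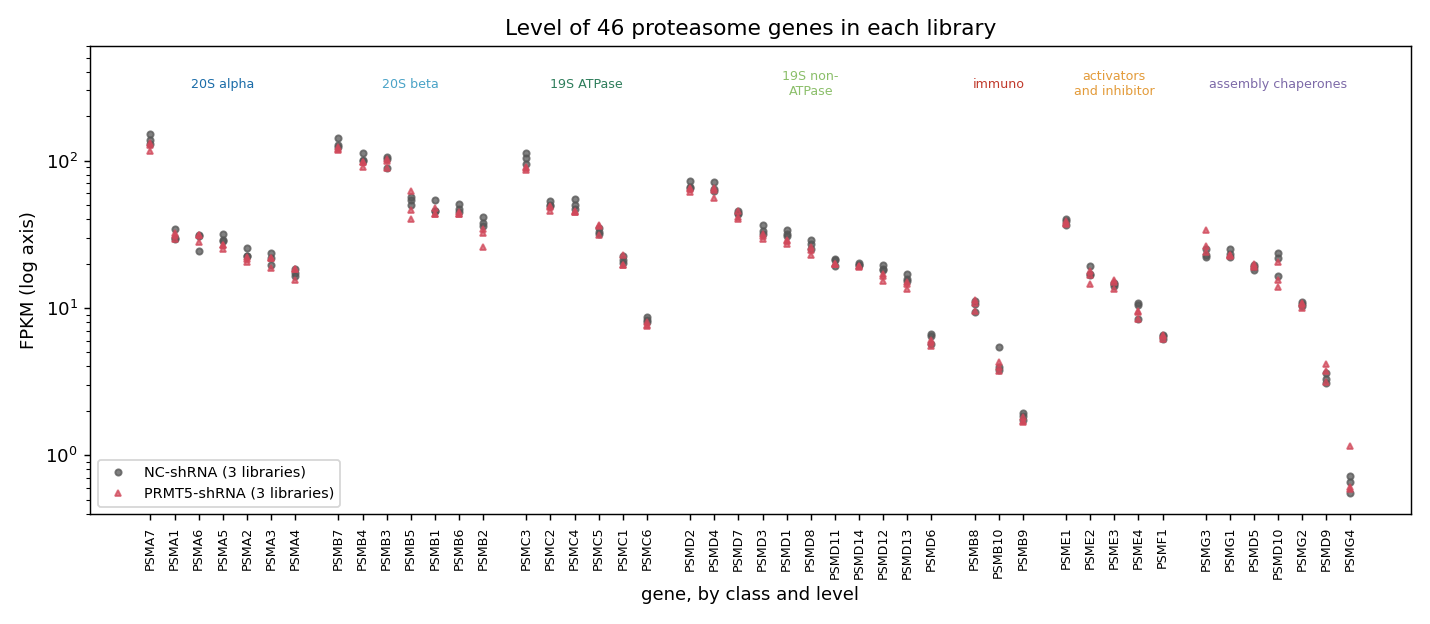
FPKM (y axis, log axis) of the 46 proteasome genes with counts in each of the 6 libraries, by class and level (x axis), with circles for NC-shRNA and triangles for PRMT5-shRNA. Levels span PSMA7 at a mean of 132 to PSMG4 at 0.713 FPKM, and the distance between genes of a class is much wider than the distance between the groups.

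Subunits that enter the particle in equal numbers were not equal in FPKM. Within the alpha ring the means ran from 17.4 FPKM for PSMA4 to 132 for PSMA7, within the constitutive beta ring from 34.7 for PSMB2 to 126 for PSMB7, among the ATPases from 8.03 for PSMC6 to 96.4 for PSMC3 and among the non-ATPases from 6.05 for PSMD6 to 65.9 for PSMD2. FPKM depends on the length used, and the annotated exonic length was 6996 bases for PSMA4 and 1750 bases for PSMA7. Without length, their NC-shRNA means were 146 and 293 CPM, so part of the FPKM range is a range of length. Of the 48 genes, 8 share exonic bases with another gene on the same strand and 15 more only with one on the other strand. For 12 of the 48, pseudogenes carry their name. Of 32 such pseudogenes, 15 had 0 counts in every library and 2 exceeded 100 counts, PSMA6P1 and PSMC1P1, the highest value being 430 counts.

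Beyond the subunits, 28 genes that build, regulate or feed the proteasome were also mostly lower. In the fit 23 were lower and 5 higher, with a median log2 fold change of -0.13. Unadjusted p-values were below 0.05 for 7 lower genes and 1 higher gene, and the groups were apart for 11 lower genes and 1 higher gene. The lower genes are 25% and 39.3% of the 28, against 6.29% and 10.7% of all genes and 15.8% and 22.8% of those in the CPM range of the constitutive subunits. The 28 were not matched to that range, and some lie outside it, including some of the 7 lower genes. None of the 28 passed the adjusted threshold. VCP, the ATPase that extracts ubiquitinated proteins, had 434 ± 40.5 CPM against 351 ± 22.6 CPM (SD, n = 3 each, log2 fold change -0.30, adjusted p = 0.254, edgeR). UBQLN4, a shuttle factor, had 134 ± 9.17 CPM against 110 ± 5.11 CPM (log2 fold change -0.28, adjusted p = 0.231, edgeR). SEM1, a small lid subunit whose symbol lies outside the naming rule, had a log2 fold change of -0.23, and POMP, the chaperone that matures the core, also had -0.23, both without overlap.

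AKIRIN2, which brings proteasomes into the nucleus, was the higher gene below an unadjusted p of 0.05, with 34.4 ± 1.51 CPM in NC-shRNA and 39.2 ± 1.68 CPM in PRMT5-shRNA (SD, n = 3 each, log2 fold change 0.19, adjusted p = 0.364, edgeR). NPLOC4 and UCHL5 followed at 0.06 and 0.05 with overlapping groups. NFE2L1, the factor that induces subunit genes, varied widely, with 17018, 20318 and 10694 counts in NC-shRNA and 12828, 10920 and 13636 in PRMT5-shRNA (log2 fold change -0.19, SE 0.23, adjusted p = 0.767, edgeR). No difference in NFE2L1 RNA was detectable against that spread.

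Of 11 genes for loading peptides on MHC class I and their regulators, 7 were lower and 4 higher, with a median of -0.03. Lower genes at an unadjusted p below 0.05 were 2 of the 11 (18.2%), against 6.29% of all genes. The share was 15.8% among genes in the CPM range of the constitutive subunits, which is not matched to this list. That range ends at 383 CPM, and both of the 2 lie above it. The 2 with an unadjusted p below 0.05 were the chaperones CALR, with 1166 ± 190 CPM against 872 ± 44.3 CPM (SD, n = 3 each, log2 fold change -0.42, adjusted p = 0.259, edgeR), and PDIA3 (log2 fold change -0.19, adjusted p = 0.318, edgeR). The third by p-value among the lower genes was B2M, the light chain of MHC class I, at -0.05. The higher genes were led by TAP1, the peptide transporter next to PSMB9, at 0.11 (95% interval -0.12 to 0.34), followed by ERAP1 at 0.08. IRF1, which switches on the immunoproteasome genes after interferon, had a log2 fold change of -0.01 (95% interval -0.29 to 0.27, adjusted p = 0.979, edgeR).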

How the data were processed

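Stranded mRNA libraries, 3 of NC-shRNA and 3 of PRMT5-shRNA NCI-H460 cells, were sequenced. Per the labels the authors trimmed reads with cutadapt 1.9, mapped them to GRCh38 with HISAT2 2.0.4 and quantified them with StringTie 1.3.4d, and the methods name another build. They deposited estimated counts per gene as whole numbers, in which low values gather at multiples of 4, and FPKM per gene. Whether counting used strand is not given in the sources used here. Genes with adequate counts (filterByExpr) were tested on the deposited counts with edgeR 4.0.16 (quasi-likelihood F-test, TMM scaling, R 4.3.3), with Benjamini-Hochberg adjustment over 20295 genes and a threshold of 0.05. CPM uses TMM-scaled totals. Standard errors were derived from the F statistic. Pairs of subunits were compared as log2 ratios of FPKM by an exact permutation test over libraries. Exon overlaps, lengths and positions came from GENCODE release 29. Scripts were checked on simulated data.

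Genes given with a value in every library were those of PSMB5 to PSMB10, the activators, PSMF1, PSMA8 and PSMB11, up to 6 others with the smallest p in each direction, and the most and least abundant of each constitutive class. Of the pathway and MHC class I lists, up to 3 with the smallest p in each direction were named, with NFE2L1, POMP, TAP1 and IRF1, and 1 gene that this rule names is not reported here. The genes and lists were chosen with earlier results of these data known. The 17 alternatives tried used DESeq2 1.42.0, other scaling or filters, a replicate block, a length offset, counts divided by 4, limma 3.58.1 on log2(FPKM + 1) or log2(FPKM + 0.1), a linear model per gene on FPKM, and fits without each of the 6 libraries. The sum of overlapping genes and the comparison with genes of like CPM were added after seeing the data.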

Additional observations from a re-analysis of the deposited data

How the results depend on the processing

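Under all 17 alternatives no proteasome gene passed an adjusted p of 0.05, the lowest adjusted p being 0.106 (DESeq2), and the median of the constitutive subunits stayed below 0, from -0.23 without NC-shRNA replicate 3 to -0.10 with FPKM. Proteasome genes lower at an unadjusted p below 0.05 numbered 12 in the edgeR fit, where 6.29% of all genes were lower. With limma they numbered 6 on log2(FPKM + 1) (5.17% of all genes) and 6 on log2(FPKM + 0.1) (5.09%). On log2(FPKM + 1) without a filter on low FPKM they numbered 6 (3.33%), and a linear model per gene gave 4 (4.46%). With 1 library left out they ranged from 5 (without PRMT5-shRNA replicate 3, 4.51%) to 19 (without NC-shRNA replicate 3, 6.71%). The cause was not tested. The immunoproteasome median ranged from -0.18 to -0.0073 with 1 library left out. The PSMB10 to PSMB7 log2 difference was 0.0139 with log2(FPKM + 1) and -0.0836 to 0.0896 with 1 library left out.

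The labels give both groups replicate numbers 1 to 3, but same-numbered libraries did not deviate together (correlations 0.035, -0.010 and -0.015). These correlations cannot show whether same-numbered libraries were handled together. With a replicate block the constitutive median was -0.17. In that fit 12 proteasome genes and 5.81% of all genes were lower at an unadjusted p below 0.05. Of the 12 genes, 10 were among the 12 without the block (PSMA2 and PSMC6 left, PSMD8 and PSMD10 came in). No proteasome gene passed the adjusted threshold either way. With the block no gene of the whole series passed it, PRMT5 included, whereas 4 lower and 10 higher genes passed without the block. With the block and a length offset the median was -0.16 and the value for PSMA6 was -0.0095. With the length offset alone PSMA6 was at -0.021.

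Of 442 values for the 26 genes named by rule, 28 changed sign. The FPKM fits gave 0.0348 and 0.0365 for the chaperone median, 0.0030 for PSMA4, 0.0235 and 0.0255 for PSMB8, 0.0161 and 0.0169 for PSME3 and 0.0026 and 0.0029 for PSMF1. With 1 library left out PSMA4 ranged from -0.11 to 0.0218, PSMA6 from -0.11 to 0.0789, PSMB8 from -0.12 to 0.0367, PSMD9 from -0.0151 to 0.18, PSME3 from -0.0915 to 0.0269 and PSMG4 from -0.16 to 0.39. PSMB9, PSMB10 and PSMG4 rested on 13.9 CPM or less in each library, with standard errors of 0.119 to 0.284.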
